A study of Mus musculus with 12 samples.

Results

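The genes described here encode subunits of the machinery of mitochondrial oxidative phosphorylation, 82 of the 18193 genes that single-symbol probe sets measured in mouse liver. They were chosen by symbol alone, as the genes whose platform symbol begins with Ndufa, Ndufb, Ndufc, Ndufs or Ndufv (36 genes, given here under complex I), Sdha to Sdhd (4 of complex II), Uqcr (8 of complex III), Cox4i, Cox5, Cox6, Cox7 or Cox8 (17 of complex IV) and Atp5 (17 of complex V), with the assembly factors named Ndufaf and Sdhaf left out. Liver RNA was hybridised to 1 Affymetrix array per mouse in 12 male C57BL6J mice, an inbred laboratory strain, aged 30 weeks. There were 4 groups of 3 mice. The penicillin high-fat group drank water with penicillin at 6.7 mg/L and ate a diet with 45% of its energy as fat since 17 weeks of age, and the control high-fat group ate that diet without antibiotic. The penicillin chow group drank the same dose and ate chow with 13.5% of its energy as fat throughout, and the control chow group ate chow without antibiotic. All mice were on chow before 17 weeks. Replicates are described in the labels as biological and are read here as 1 mouse each.

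Oxidative phosphorylation couples the burning of fuel to the making of ATP. Complex I takes electrons from NADH and complex II from succinate, complex III passes them on to cytochrome c and complex IV to oxygen, and complex V makes ATP with the proton gradient that complexes I, III and IV build. In liver the chain serves, among others, the breakdown of fatty acids and the synthesis of glucose. Most subunits are encoded in the nucleus, a few in mitochondrial DNA. Several complex IV subunits come in pairs of isoforms, one found in most tissues and one enriched in heart and skeletal muscle, lung or testis.

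The design asks whether low-dose penicillin and a high-fat diet changed the level of these messages, each alone and together. Of the 82 genes, 80 passed a minimum of log2 4.999, the 40th percentile of the table, on at least 3 arrays and were tested among 13788 genes. Ndufb4, an accessory subunit of complex I, lay between 3.91 and 4.44 on the 12 arrays. Cox7b2, a testis isoform of complex IV, lay between 3.65 and 3.93. Both were below the minimum on every array, although 2 further probe sets name Ndufb4 together with its copies Ndufb4b and Ndufb4c and averaged 11.8 and 11.9. Probe sets that name several genes were not used, and 10 of them include a symbol of these families. Of the 80 genes tested, 79 were above the minimum on all 12 arrays, the exception being Cox6b2, at 4.97 in control high-fat mouse 1.

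The signals were bright and varied little within groups. The median of their mean levels was log2 12.3, against 7.51 over all genes tested, and 71 of the 80 had a mean over 10. The 9 with a mean under 9 were the isoforms Cox4i2, Cox6a2, Cox6b2, Cox7a1, Cox8b, Cox8c and Ndufa4l2, together with Cox7c and Ndufb1. The median standard deviation within groups was 0.0516 for the subunits and 0.130 for all genes tested. Cox7a1, at 0.298, had the widest spread among the subunits. Probe sets differ in brightness for equal amounts of RNA, so these levels are signals, not amounts of RNA to be set against other genes.

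Some arrays stood apart in ways that touch the results. Penicillin chow mouse 1 had high acute-phase messages, with Saa1 at 13.76 against 9.56 to 11.91 on the other 11 arrays. The 18S control signal was 11.8 in penicillin high-fat mouse 2 and penicillin chow mice 2 and 3, and at least 12.7 elsewhere. Penicillin high-fat mouse 3 and control high-fat mouse 3 carried skeletal muscle messages, with Acta1, the actin of skeletal muscle, at 7.82 and 7.40 against 5.29 to 5.80 on the other 10 arrays. Hepatocyte markers were present on all arrays, among them Cps1, the first enzyme of the urea cycle, between 13.64 and 14.23. Because the samples are bulk liver, fewer cells of a type and less RNA per cell cannot be told apart. The array normalisation also removes any change in total RNA.

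On high-fat diet most subunit messages were slightly higher than on chow. Averaged over both treatments, 67 of 80 had a positive difference, with a median of 0.05 on the log2 scale, where all 13788 genes had a median of -0.01 and 47.7% were positive. With limma and Benjamini-Hochberg adjustment over all genes, 11 of the 80 were higher and 0 lower. Over all genes tested 14.5% passed in either direction, 9.63% higher and 4.85% lower, so the 13.75% of subunits that passed is a share near the background. The genes that rose were Ndufa6, Ndufs5, Ndufa5, Ndufb2 and Ndufs4 of complex I, Sdhd of complex II, Uqcr10 and Uqcrq of complex III, Cox7a1 of complex IV, and Atp5e and Atp5j of complex V. Cox7a1 rose 1.88-fold and the other 10 between 1.11-fold and 1.18-fold. Without adjustment, 22 of 80 had a p under 0.05, or 27.5%, against 30.1% of all genes. Pooled over treatments, every high-fat value was above every chow value for 16 subunits and below for 0, against 4.35% and 2.14% of all genes.

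The count of 11 depended on single arrays and on a few settings. The share of all genes passing in each of these fits is not given, so the changes cannot be read as particular to the subunits. It lay between 3 and 10 when 1 array was left out: dropping penicillin high-fat 1 or control chow 3 left 3, penicillin high-fat 3 or control high-fat 1 left 4, control high-fat 2 or penicillin chow 2 left 5, and control chow 1 or 2 left 6. Dropping penicillin chow 1, where acute-phase messages were high, left 9. It was 2 without the pair of arrays with muscle messages, 4 without the 3 arrays of low 18S signal, and 2 when each array was centred on the median of its tested genes. Whichever 1 of the 12 arrays was dropped, Cox7a1, Sdhd and Ndufb2 passed, and Cox7a1 and Sdhd passed without the muscle arrays.

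The mean over all subunits, taken for each mouse as the average deviation of its genes from their means over the 12 arrays, was 0.045, 0.038 and 0.025 in penicillin high-fat mice and 0.062, 0.021 and 0.030 in control high-fat mice. It was -0.080, -0.063 and -0.008 in penicillin chow mice and -0.030, -0.037 and -0.004 in control chow mice. All 6 high-fat mice thus lay above all 6 chow mice, by steps far below a 1.5-fold change. The highest chow values belonged to 1 mouse of each chow group, both numbered 3. The plot by complex shows that complexes I, III and V kept the mice of the 2 diets apart, while complexes II and IV overlapped. In complex III the diets barely parted, with control high-fat mouse 2 at 0.0123 and control chow mouse 3 at 0.0115.

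**Figure D1:**
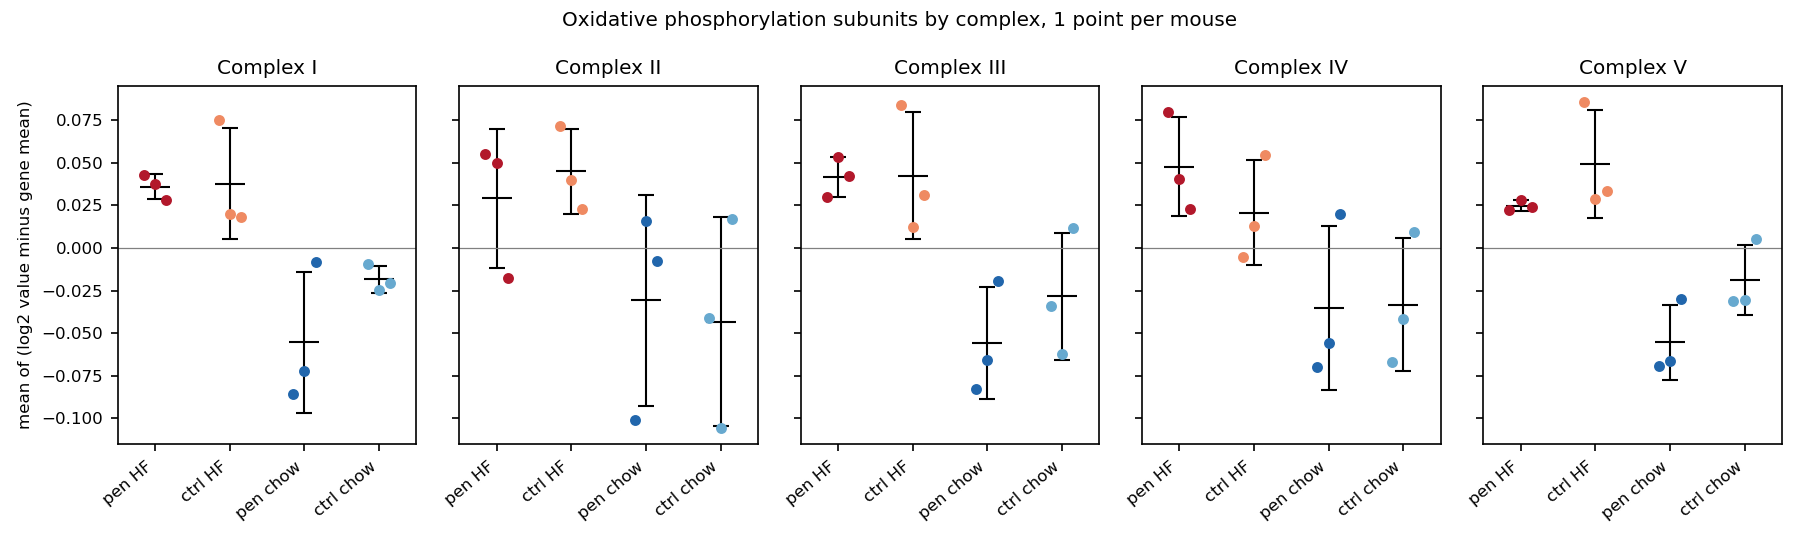
Mean deviation from the gene mean (log2) of the subunits of each complex, 1 point per mouse, with the group mean and SD. Groups run from penicillin high-fat (pen HF) and control high-fat (ctrl HF) to penicillin chow (pen chow) and control chow (ctrl chow). In complex V all 6 high-fat mice lie above all 6 chow mice, in complex II they do not.

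The shift was seen within each treatment. Among penicillin mice 65 of 80 subunits were higher on the high-fat diet (48.4% of all genes), the median was 0.08 against -0.01 over all genes, and 4 passed, namely Cox7a1, Ndufs5, Ndufb2 and Sdhd, where 8.32% of all genes passed in either direction, 6.43% higher and 1.89% lower. Among control mice 67 of 80 were higher (48.5% of all genes), with a median of 0.05 against -0.00466 over all genes, and 0 passed, where 0.899% of all genes passed, 0.653% higher and 0.247% lower. Without adjustment the numbers with p under 0.05 were 21 in penicillin mice and 5 in control mice, against 24.5% and 15.1% of all genes. In penicillin mice 35 subunits had all 3 high-fat values above all 3 chow values and 0 the reverse, against 15.6% and 12.3% of all genes. In control mice these numbers were 27 and 0, against 12.4% and 10.4% of all genes. The count of 4 fell to between 0 and 3 when any 1 array was left out, being 0 when penicillin chow 2 was dropped, 1 when a single penicillin high-fat mouse was dropped, 3 when control chow 3 was dropped and 2 for each remaining array.

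**Figure D2:**
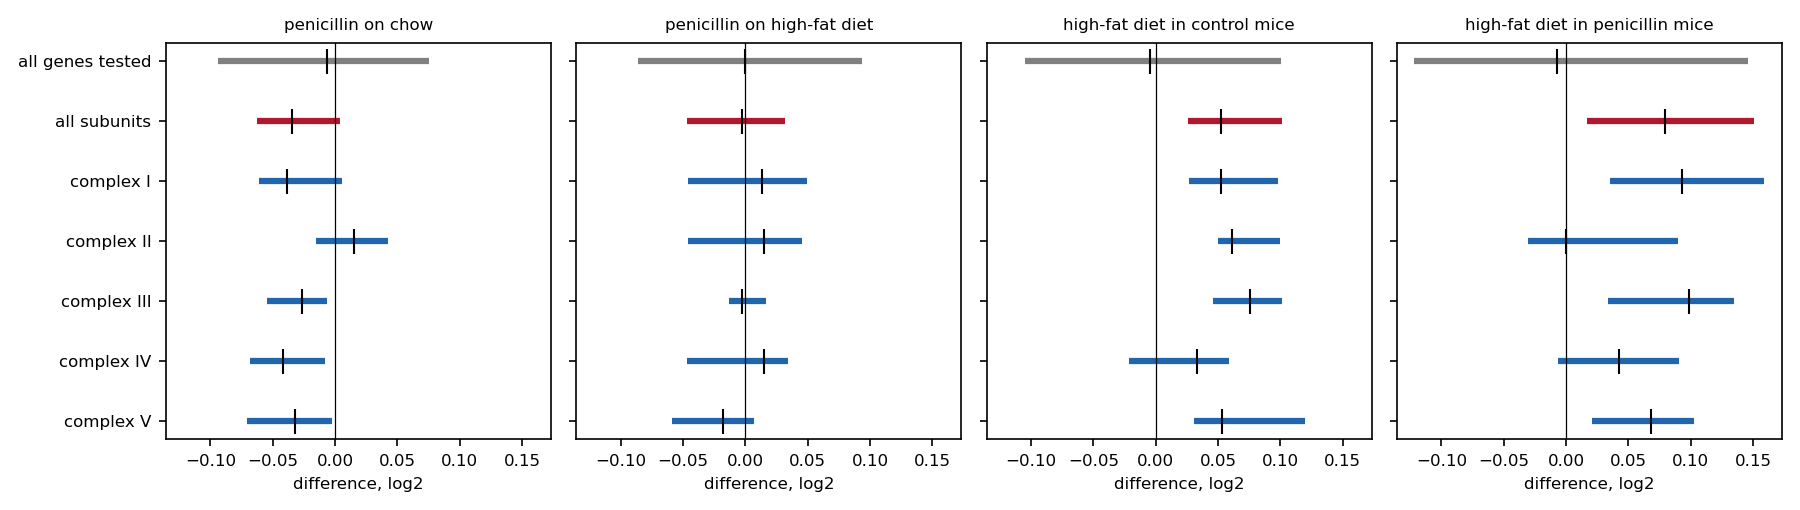
Median (black tick) and interquartile range (bar) of the difference on the log2 scale for all genes tested, all 80 subunits and each complex in the 4 comparisons between single groups. The bars of the subunits sit mostly right of 0 in both comparisons of high-fat diet with chow, at medians of 0.08 in penicillin and 0.05 in control mice. For penicillin against control the medians are -0.00309 on high-fat diet and -0.03 on chow.

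Scaling bears on shifts this small. Centring each array on the median of its tested genes brought the median of the subunits, averaged over treatments, to 0.02 and that of all genes to -0.04. Cyclic loess gave 0.04 for the subunits and -0.00165 for all genes. The subunits' median was positive under each of these scalings in both treatments and in their average.

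Complex I, the entry point of electrons from NADH, had a median of 0.09 over its 35 genes tested, of which 28 were positive and 5 rose with the averaged diet comparison. In this comparison 47.7% of all genes were positive, 9.63% rose and 4.85% fell, the background for the counts of each complex below as well. Ndufb2, an accessory subunit of the membrane arm, stood at 12.13, 12.17 and 12.17 in penicillin high-fat mice and 12.09, 12.09 and 12.10 in control high-fat mice, against 11.95, 11.90 and 11.96 in penicillin chow mice and 12.01, 11.93 and 11.98 in control chow mice. The high-fat and chow mice did not overlap, and the difference was 0.17 ± 0.04 (SE; adjusted p = 0.0196). Ndufa6, an accessory subunit of the LYR motif family, stood at 12.31, 12.35 and 12.28 in penicillin high-fat mice and 12.36, 12.33 and 12.36 in control high-fat mice, against 11.91, 12.10 and 12.19 in penicillin chow mice and 12.17, 12.23 and 12.15 in control chow mice. Its difference was 0.21 ± 0.05 (SE; adjusted p = 0.0257), again without overlap.

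Ndufs5, an accessory subunit, was the complex I message with the smallest p in penicillin mice. It stood at 11.72, 11.71 and 11.73 in penicillin high-fat mice, against 11.34, 11.43 and 11.48 in penicillin chow mice, a difference of 0.31 ± 0.07 (SE; adjusted p = 0.0253). In control high-fat mice it stood at 11.77, 11.58 and 11.59, against 11.60, 11.59 and 11.51 in control chow mice, where the groups overlapped and the difference was 0.08 (adjusted p = 0.653). The diet effect in penicillin mice minus that in control mice was 0.22 ± 0.10 (SE) and did not pass (adjusted p = 0.824). Over both treatments Ndufs5 was 0.19 higher on high-fat diet (adjusted p = 0.0286).

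Ndufs4, an accessory subunit of the matrix arm whose loss causes Leigh-like disease in people and mice, was 0.17 ± 0.05 higher on high-fat diet (SE; adjusted p = 0.0297), with no overlap between the diets. Its values were 10.68, 10.65 and 10.67 in penicillin high-fat mice and 10.63, 10.72 and 10.65 in control high-fat mice, against 10.47, 10.41 and 10.53 in penicillin chow mice and 10.55, 10.56 and 10.47 in control chow mice. Ndufa5, another accessory subunit, was 0.17 ± 0.05 higher (SE; adjusted p = 0.0365), and its groups overlapped because penicillin chow mouse 3, at 11.66, lay above control high-fat mouse 3, at 11.64. Just outside the threshold stood Ndufc1, at 0.15 (adjusted p = 0.0516), and Ndufa8, at 0.16 (adjusted p = 0.0526).

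The 5 complex I messages that rose all encode accessory subunits. The 6 measured genes for core subunits, which bacterial complex I has too, Ndufs1, Ndufs3, Ndufs7, Ndufs8, Ndufv1 and Ndufv2, had diet differences between -0.08 for Ndufs7 and 0.09 for Ndufv2, with a median of -0.01, and 2 were positive. Other probe sets gave 0.03 and 0.02 for Ndufv1, 0.02 and -0.000351 for Ndufv2, -0.03 for Ndufs7, and -0.05 to 0.11 for Ndufs8. The count of positive core genes thus depends on the probe set used. The other 29, with Ndufa4 and Ndufa4l2 among them, had a median of 0.09 and 26 were positive. This division was made after the values were seen and the difference between core and other genes was not tested. Ndufa4, grouped here by its symbol, is now placed in complex IV, and Ndufa4l2 is its homologue that low oxygen induces. Ndufa4l2 was at -0.10 (adjusted p = 0.269) and Ndufa4 at 0.09 (adjusted p = 0.175).

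Complex II is also an enzyme of the citric acid cycle, and 1 of its 4 messages rose. Sdhd, a membrane anchor, stood at 12.08, 12.09 and 11.97 in penicillin high-fat mice and 11.97, 11.98 and 11.99 in control high-fat mice, against 11.67, 11.83 and 11.82 in penicillin chow mice and 11.70, 11.73 and 11.89 in control chow mice. The diets did not overlap, and the difference was 0.24 ± 0.05 (SE; adjusted p = 0.0137), or 1.18-fold. This probe set gave 0.27 in penicillin mice and 0.21 in control mice. A dimmer probe set of Sdhd gave 0.13 averaged over treatments, 0.23 in penicillin mice and 0.03 in control mice. The other membrane anchor Sdhc was at -0.00361, the flavoprotein Sdha at 0.05 and the iron-sulphur subunit Sdhb at 0.01, and none of these passed.

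Complex III had a median of 0.09 over 8 genes, with 7 positive. Uqcr10, a small accessory subunit, stood at 12.09, 12.14 and 12.14 in penicillin high-fat mice and 12.28, 11.98 and 12.07 in control high-fat mice, against 11.91, 11.83 and 11.93 in penicillin chow mice and 11.93, 11.94 and 11.98 in control chow mice. The diets overlapped by less than 0.01, at control high-fat mouse 2 and control chow mouse 3, both 11.98, and the difference was 0.20 ± 0.06 (SE; adjusted p = 0.0373). Uqcrq, another small subunit, was 0.16 ± 0.05 higher without overlap (SE; adjusted p = 0.0382). Dimmer probe sets of Uqcrq, with means of 5.63, 5.70 and 4.94, gave -0.15, 0.19 and 0.08. The core proteins Uqcrc1 and Uqcrc2 were at 0.04 and 0.09 and the Rieske iron-sulphur protein Uqcrfs1 at 0.10, and none of the 3 passed.

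Complex V, the ATP synthase, had a positive difference in 17 of 17 genes by the brightest probe set of each, with a median of 0.05 and a range of 0.00429 to 0.19. A dimmer set above the minimum was negative for Atp5k (-0.02), Atp5a1 (-0.000755), Atp5j2 (-0.13) and Atp5c1 (-0.09). Over all complexes 57 of the 74 other sets above the minimum had the sign of the set used. Atp5e, the epsilon subunit, stood at 12.45, 12.44 and 12.54 in penicillin high-fat mice and 12.61, 12.44 and 12.44 in control high-fat mice, against 12.26, 12.19 and 12.32 in penicillin chow mice and 12.30, 12.43 and 12.33 in control chow mice. The diets did not overlap, by a margin of 0.01, and the difference was 0.19 ± 0.05 (SE; adjusted p = 0.0359). Atp5j, coupling factor 6 of the peripheral stalk, was 0.15 ± 0.04 higher without overlap (SE; adjusted p = 0.0323). The catalytic pair Atp5a1 and Atp5b, at 0.04 and 0.01, did not pass.

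**Figure D3:**
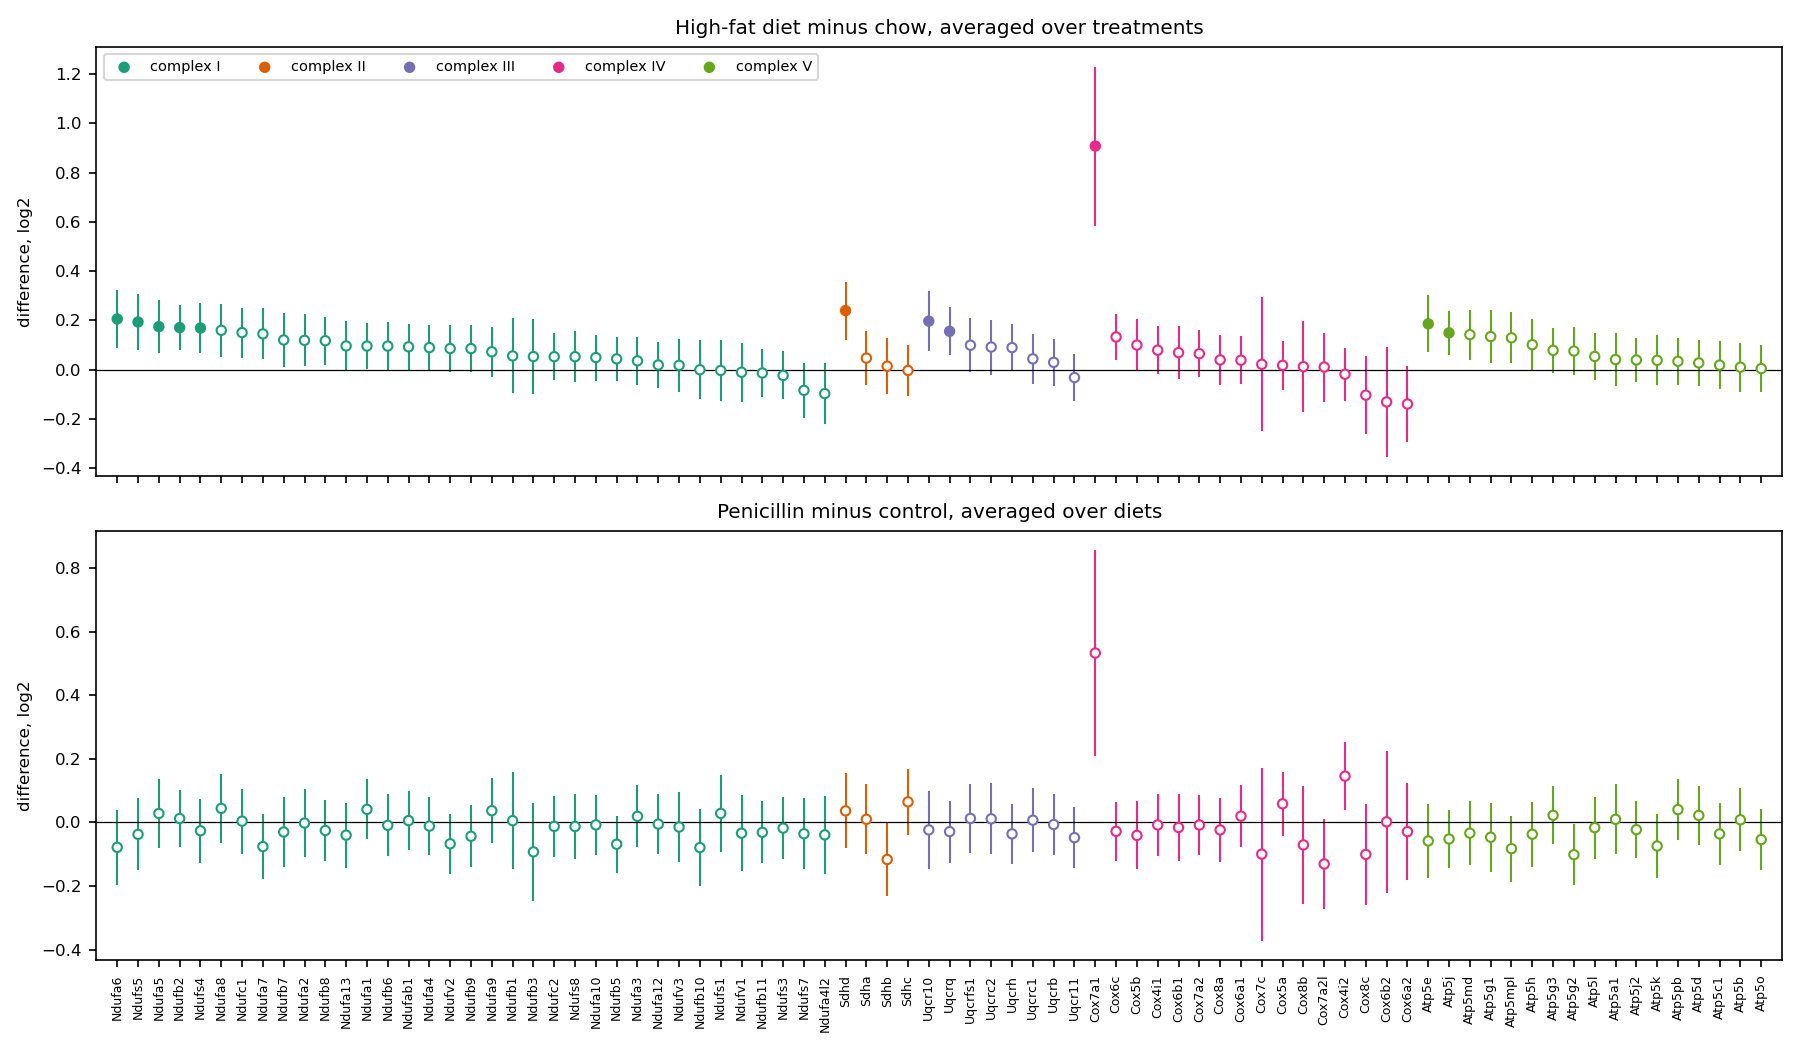
Difference on the log2 scale with its 95% confidence interval for each of the 80 subunits, ordered within complex by the diet difference. The upper panel gives high-fat diet minus chow averaged over treatments, the lower penicillin minus control averaged over diets, and filled points pass an adjusted p of 0.05. Cox7a1, at 0.91 and 0.53, is the far point in both panels, and 11 points are filled in the upper panel and 0 in the lower.

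The exception in size was Cox7a1, the isoform of cytochrome c oxidase subunit 7A that is abundant in heart, skeletal muscle and brown fat. It stood at 7.68, 6.84 and 6.85 in penicillin high-fat mice and 6.50, 6.68 and 6.39 in control high-fat mice, against 6.21, 5.94 and 6.28 in penicillin chow mice and 5.48, 5.59 and 5.97 in control chow mice. Every high-fat mouse was above every chow mouse, and every penicillin high-fat mouse above every control high-fat mouse, while the 2 chow groups overlapped. Averaged over treatments, it rose by 0.91 ± 0.15 (SE; 95% interval 0.58 to 1.23; adjusted p = 0.00272). Within penicillin mice it rose by 0.98 (adjusted p = 0.0160), and within control mice the difference of 0.84 did not pass (adjusted p = 0.0840). The 2 diet effects differed by 0.13 (adjusted p = 0.980). The call in penicillin mice was lost without penicillin chow 2 (adjusted p = 0.0555), when the 3 arrays of low 18S signal were left out (adjusted p = 0.0785), with the Gapdh measure of RNA quality as a covariate (adjusted p = 0.0623) and in a fit of the 6 arrays compared (adjusted p = 0.0683). In control mice it was gained without penicillin high-fat 1 (adjusted p = 0.0272), with array weights (adjusted p = 0.0242) and in a fit of the 6 arrays compared (adjusted p = 0.0428).

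Cox7a1 was also the subunit with the largest penicillin difference, although this did not pass. It was 0.53 ± 0.15 higher in penicillin mice averaged over diets (SE; unadjusted p = 0.00381; adjusted p = 0.189). The difference was 0.60 on high-fat diet (adjusted p = 0.342) and 0.46 on chow (adjusted p = 0.651). On high-fat diet, leaving out penicillin high-fat mouse 1 reduced it to 0.32. Cidea, a lipid droplet protein listed among the adipocyte markers, was higher with penicillin on high-fat diet, by 3.70 (adjusted p = 0.00154). On chow it was at -0.10 (adjusted p = 0.972). The part of Cidea in the Cox7a1 difference was not tested.

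Muscle markers were read beside Cox7a1. Of 14 muscle markers measured, 7 were higher on penicillin high-fat 3 and control high-fat 3 than on any other array, among them Tnnc2, troponin C of fast muscle, at 6.89 and 6.27 against 4.26 to 4.78. On these arrays Cox7a1 was 6.85 and 6.39, the middle value of the penicillin high-fat group and the lowest of the control high-fat group. Myh4, Myh6, Myh7 and Myh2, myosins of muscle and heart, lay below the minimum on all arrays. The mean level of the 14 markers ranged over 4.97 to 5.63 in penicillin high-fat mice, up to 5.39 with a median of 5.12 in control high-fat mice, 5.01 to 5.08 in penicillin chow mice and 5.01 to 5.13 in control chow mice. Without both arrays the diet difference of Cox7a1 was 1.01 (adjusted p = 0.00604). Both arrays were chosen after their values were seen, and the part of muscle messages in the Cox7a1 difference was not tested. Of the 5 adipocyte markers tested, Cidea and Fabp4 were higher on high-fat diet and Lipe lower. Cidea stood at 9.73, 8.14 and 9.79 in penicillin high-fat mice and 5.57, 5.59 and 5.41 in control high-fat mice, against 4.42, 5.13 and 5.03 in penicillin chow mice and 4.48, 5.22 and 5.18 in control chow mice. The part of the genes on the adipocyte list in the Cox7a1 difference was not tested. Of 8 adipocyte markers measured, 3 lay below the minimum on all arrays.

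**Figure D4:**
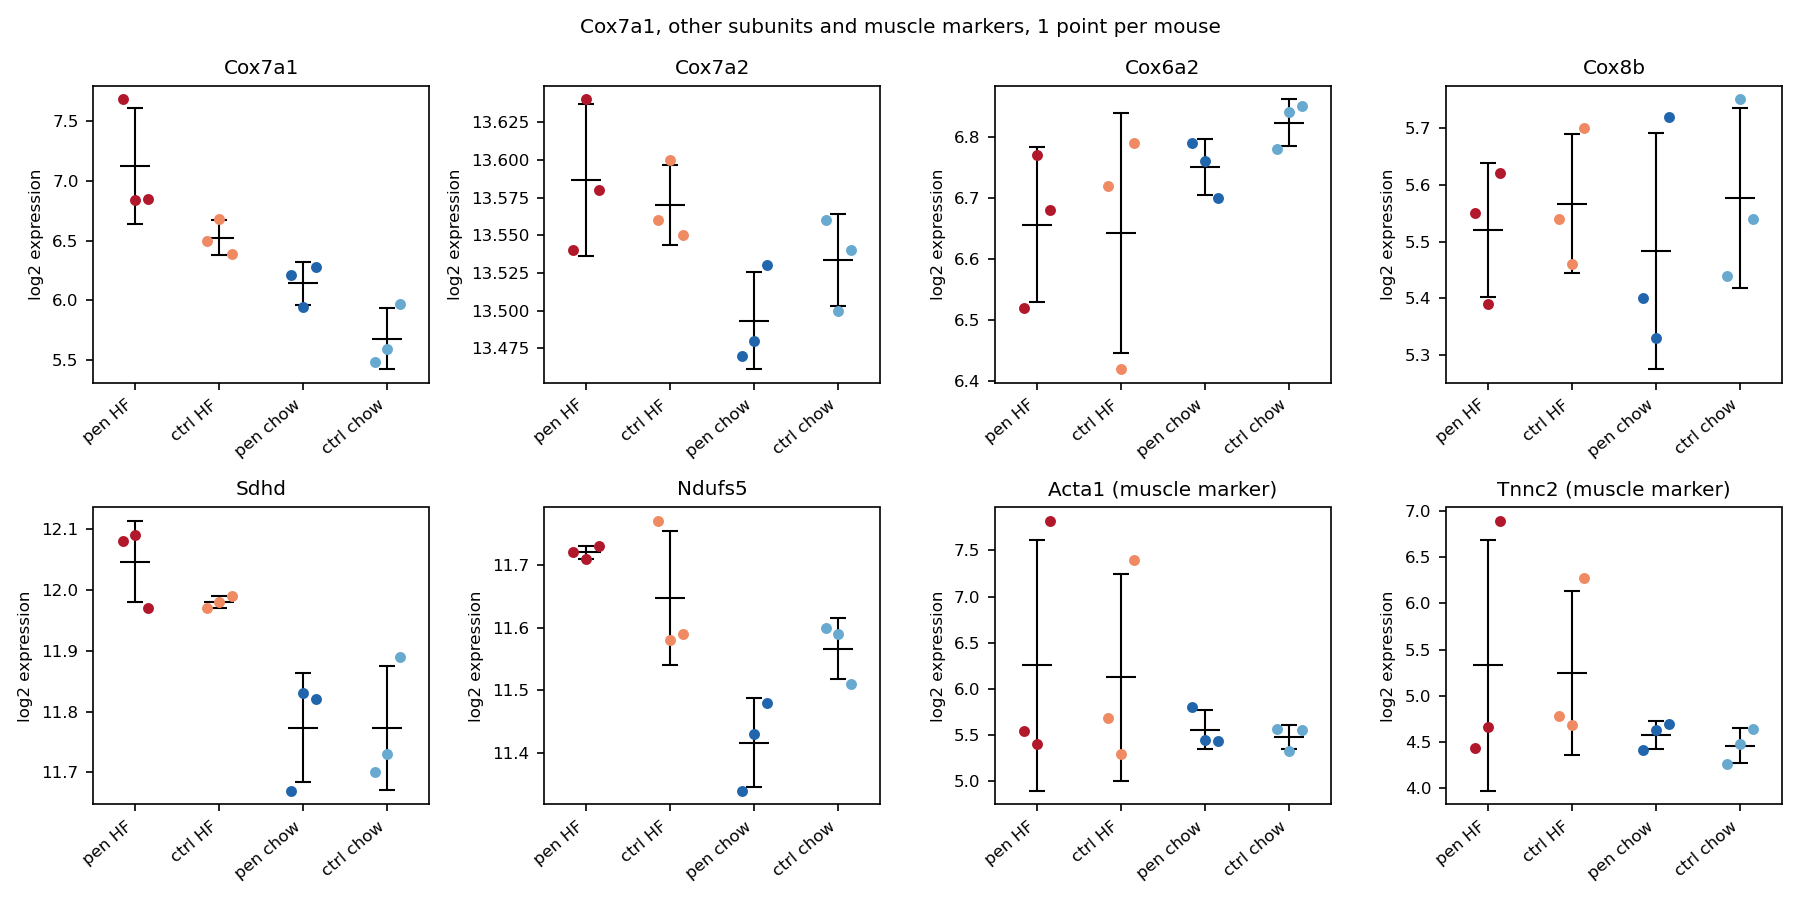
Log2 expression of Cox7a1, 5 further subunits and 2 muscle markers, 1 point per mouse, with the group mean and SD. Axes differ between panels and do not start at 0. Cox7a1 separates the diets, at 6.39 or more in high-fat and 6.28 or less in chow mice. Acta1 and Tnnc2 are high in 1 mouse of each high-fat group.

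The partner of Cox7a1 did not pass. Cox7a2, the isoform found in most tissues including liver, stood at 13.54, 13.64 and 13.58 in penicillin high-fat mice and 13.56, 13.60 and 13.55 in control high-fat mice, against 13.47, 13.48 and 13.53 in penicillin chow mice and 13.56, 13.50 and 13.54 in control chow mice. Its diet difference was 0.06 (adjusted p = 0.342). Cox7a2l, which takes part in joining complexes III and IV, was at 0.01 (adjusted p = 0.935).

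The other muscle isoforms of complex IV gave no call. Cox6a2 stood at 6.52, 6.77 and 6.68 in penicillin high-fat mice and 6.72, 6.42 and 6.79 in control high-fat mice, against 6.79, 6.76 and 6.70 in penicillin chow mice and 6.78, 6.84 and 6.85 in control chow mice, a difference of -0.14 (adjusted p = 0.206). Cox8b lay between 5.39 and 5.70 on high-fat diet and between 5.33 and 5.75 on chow (0.01, adjusted p = 0.943). The testis isoforms Cox6b2 and Cox8c were at -0.13 and -0.10, their partners Cox6b1 and Cox8a at 0.07 and 0.04, and Cox6a1, the partner of Cox6a2, at 0.04. None of these passed. Over the 16 complex IV genes tested, 12 were positive, the median was 0.03 and Cox7a1 alone passed, with Cox6c next, at 0.13 (adjusted p = 0.0581).

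Promoter sequences of 300 bases, 250 before and 50 after the start of transcription (RefSeq, build GRCm38.p6), matched 67 of the 82 genes. The promoters of Cox7a1 and Cox7a2 are shown because the first passed on high-fat diet and its partner did not, and those of Sdhd and Ndufb2 because these passed in every fit that left out 1 array. Each is written 5′ to 3′ along the gene, and capitals mark the motifs listed after the sequences.
Cox7a1 promoter, chr7:30183921-30184220, plus strand: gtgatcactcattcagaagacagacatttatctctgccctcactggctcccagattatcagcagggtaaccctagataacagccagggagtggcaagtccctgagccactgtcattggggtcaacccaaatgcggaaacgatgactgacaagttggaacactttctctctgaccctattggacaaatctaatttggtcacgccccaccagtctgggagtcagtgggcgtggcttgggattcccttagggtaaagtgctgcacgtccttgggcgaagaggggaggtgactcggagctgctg
Cox7a2 promoter, chr9:79759804-79760103, minus strand: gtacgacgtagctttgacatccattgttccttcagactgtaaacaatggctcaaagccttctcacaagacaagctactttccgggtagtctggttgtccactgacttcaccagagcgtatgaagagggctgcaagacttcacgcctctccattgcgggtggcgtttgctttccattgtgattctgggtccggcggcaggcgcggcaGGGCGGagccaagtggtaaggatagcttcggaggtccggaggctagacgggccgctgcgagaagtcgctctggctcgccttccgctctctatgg
Sdhd promoter, chr9:50603800-50604099, minus strand: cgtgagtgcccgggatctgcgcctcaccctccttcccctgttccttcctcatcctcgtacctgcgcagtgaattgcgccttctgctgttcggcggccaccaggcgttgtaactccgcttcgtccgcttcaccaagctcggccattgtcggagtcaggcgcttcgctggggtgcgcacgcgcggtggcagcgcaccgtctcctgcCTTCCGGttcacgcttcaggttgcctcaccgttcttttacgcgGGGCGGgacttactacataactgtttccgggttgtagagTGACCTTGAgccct
Ndufb2 promoter, chr6:39592315-39592614, plus strand: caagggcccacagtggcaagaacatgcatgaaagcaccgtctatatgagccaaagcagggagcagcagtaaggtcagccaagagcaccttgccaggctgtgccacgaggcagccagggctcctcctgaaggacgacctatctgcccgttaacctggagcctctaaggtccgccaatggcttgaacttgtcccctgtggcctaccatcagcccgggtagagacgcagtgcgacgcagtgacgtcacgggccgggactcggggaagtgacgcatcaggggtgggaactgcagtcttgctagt

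The motifs of factors known to act on respiratory chain genes or on promoters at large were searched as exact letters on both strands, each on its own, so matches may overlap. They were the core GCATGCGC of the NRF1 site, CCGGAAG for the ETS family with GABPA, TCAAGGTCA for oestrogen-related receptor alpha (ERRA), GGGCGG for Sp1, AAGATGGCG for YY1 and TATAAA for the TATA box. Neither the Cox7a1 nor the Ndufb2 window holds any of them, Cox7a2 holds the Sp1 letters, and Sdhd holds the ETS letters, the Sp1 letters and the ERRA letters. Of the 67 genes 62 had 1 window and 5 had 2, and a gene was counted where any window held the letters. Over the 67 genes the NRF1 core was present in 13.4%, against 3.94% of 17492 protein-coding genes, the ETS letters in 25.4% against 12.9%, the YY1 letters in 8.96% against 2.14%, and the ERRA letters in 2.99% against 0.377%. The Sp1 letters were in 43.3% against 49.2% and TATAAA in 11.9% against 14.8%. Of the 10 genes that rose on high-fat diet and have a promoter, 1 held the NRF1 core, 3 the ETS letters, 2 the YY1 letters and 1 the ERRA letters. A match is a run of letters, not a shown site, and these shares describe the families without a test.

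No subunit message passed the threshold for penicillin. Among mice on high-fat diet 38 of 80 were higher with penicillin (49.8% of all genes), with a median of -0.00309 against -0.000511 over all genes, and 0 passed in limma, where 0.341% of all genes did, 0.254% higher and 0.087% lower. On chow 22 of 80 were higher (47.8% of all genes), with a median of -0.03 against -0.01 over all genes, and 0 passed, where 0.00725% of all genes did. Averaged over diets 26 of 80 were higher (48.4% of all genes), the median was -0.02 against -0.00411 over all genes, and 0 passed, where 0.145% of all genes did, 0.102% higher and 0.0435% lower. Without adjustment, 3 had a p under 0.05 on high-fat diet, 1 on chow and 4 averaged over diets, against 10.1%, 7.62% and 11.9% of all genes. The groups did not overlap for 7 higher and 7 lower subunits on high-fat diet, against 9.5% and 7.85% of all genes, and for 1 higher and 13 lower on chow, against 4.79% and 7.04%.

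Macrophage markers were mostly on the negative side with penicillin, and endothelial markers were so on chow and averaged over diets. On high-fat diet 14 of 15 macrophage markers were negative (median -0.17) and 8 of 14 endothelial markers (median -0.03), where 49.8% of all genes were positive. The mean endothelial deviation was 0.21 in penicillin high-fat mice and 0.20 in control high-fat mice. Per mouse, the mean deviation of the macrophage markers was 0.47, 0.38 and -0.13 in penicillin high-fat mice, against 0.43, 0.47 and 0.34 in control high-fat mice. On chow 14 of 15 macrophage markers (median -0.47) and 14 of 14 endothelial markers (median -0.24) were negative, and 11 and 6 had an unadjusted p under 0.05, against 7.62% of all genes. The macrophage mean was -0.11, -0.65 and -0.85 in penicillin chow mice 1, 2 and 3, against -0.18, -0.14 and -0.06 in control chow mice. Penicillin chow mouse 1 thus lay within the control range, and penicillin chow mice 2 and 3 were arrays of low 18S signal. The endothelial mean was -0.19, -0.36 and -0.47, against -0.06, -0.01 and -0.14. Averaged over diets 14 of 15 macrophage markers (median -0.32) and 13 of 14 endothelial markers (median -0.12) were negative. In limma 0 markers of these 2 lists passed in any of the 3 comparisons. The part of these cells in the subunit values was not tested.

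Intervals of the penicillin difference were narrow for most genes. In each of the 3 penicillin comparisons, 79 of 80 subunits had a 95% interval of the difference within a 1.5-fold change either way, the exception being Cox7a1. Of all genes 88.6% had such an interval on high-fat diet, 88.6% on chow and 94.9% averaged over diets. Besides Cox7a1, the genes with an unadjusted p under 0.05 averaged over diets were Cox4i2, Atp5g2 and Sdhb. Cox4i2, the lung-enriched isoform of subunit 4 that low oxygen induces, stood at 5.90, 5.87 and 5.82 in penicillin high-fat mice, against 5.76, 5.73 and 5.58 in control high-fat mice. On chow it stood at 5.87, 5.88 and 5.81 in penicillin mice, against 5.71, 5.78 and 5.72 in control mice. All 6 penicillin mice were thus above all 6 control mice. By the rule of no overlap within each diet on its own, Cox4i2 was the 1 higher subunit of 80, against 0.783% of all genes. The difference was 0.15 ± 0.05 (SE; unadjusted p = 0.0126; adjusted p = 0.275). Its partner Cox4i1 did not pass either, at -0.01.

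Atp5g2, one of 3 genes for subunit c of the ATP synthase, had a difference of -0.10 ± 0.04 (SE; unadjusted p = 0.0407; adjusted p = 0.391). It stood at 11.39, 11.43 and 11.40 in penicillin high-fat mice, against 11.54, 11.46 and 11.51 in control high-fat mice, and at 11.30, 11.28 and 11.40 in penicillin chow mice, against 11.41, 11.44 and 11.45 in control chow mice. The groups did not overlap within either diet, as for Ndufb5, these being 2 lower subunits against 0.943% of all genes. Sdhb was at -0.12 ± 0.05 (SE; unadjusted p = 0.0463; adjusted p = 0.408).

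For no subunit did the difference between the diet effects in penicillin and control mice pass. In the interaction test 0 of 80 passed, where 0.0435% of all genes did, 0.0363% higher and 0.00725% lower, and 0 had an unadjusted p under 0.05, against 6.11% of all genes. The diet effect was larger in penicillin mice for 52 of 80 (52.4% of all genes), with a median of 0.03 against 0.00979 over all genes. The median of the subunits was -0.01 when each array was centred on the median of its tested genes. For 78 of 80 the 95% interval lay within a 1.5-fold change, Cox7a1 and Cox7c being the exceptions.

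Genes that work beside the chain were read in the same fit, averaged over treatments. Of 14 genes of mitochondrial beta-oxidation, which feeds the chain with NADH and reduced flavin, 6 were higher and 0 lower, where 9.63% of all genes were higher and 4.85% lower, with a median of 0.14. Acadl, an acyl-CoA dehydrogenase, was 0.33 ± 0.05 higher (SE; adjusted p = 0.00252) and Eci1, an enoyl-CoA isomerase, 0.36 ± 0.06 higher (SE; adjusted p = 0.00412), and Acadm, Decr1, Hadh and Hadhb rose too. Etfdh, which passes electrons from these dehydrogenases to ubiquinone, was 0.27 higher (adjusted p = 0.0160), the only one of the 5 carriers and subunits outside the symbol rule (Cyc1, Cycs, Etfa, Etfb and Etfdh) to pass. Of 16 genes of the citric acid cycle and pyruvate dehydrogenase, 4 were higher and 1 lower, with a median of 0.09. They were Dlat at 0.61, Pdha1 at 0.22, Suclg1 at 0.20 and Idh3g at 0.18, while Idh3a was at -0.34.

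Assembly factors, which build the complexes without staying in them, gave calls at shares near those of all genes. Of 44 tested, 6 were higher and 2 lower, against 9.63% and 4.85% of all genes, with a median of 0.04. Ndufaf5, Ndufaf2, Uqcc2, Tmem70, Sdhaf4 and Cox16 rose by 0.18 to 0.27, while Ndufaf4 fell by 0.62 (adjusted p = 0.0170) and Cox10, which makes the haem of complex IV, fell by 0.37 (adjusted p = 0.00510). Of 12 genes of coenzyme Q synthesis, Coq8b fell by 0.56 (adjusted p = 0.0108) and 0 rose. The one gene of mitochondrial DNA measured, ND5 of complex I, was at -0.01.

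Among 16 regulators of mitochondrial biogenesis 1 was higher and 1 lower, against 14.5% of all genes in either direction, with a median of -0.03. Ppargc1a, the coactivator PGC-1 alpha that drives respiratory chain genes, stood at 8.34, 7.91 and 7.71 in penicillin high-fat mice and 7.85, 7.64 and 7.80 in control high-fat mice, against 6.36, 7.27 and 6.82 in penicillin chow mice and 6.68, 7.11 and 6.84 in control chow mice. The diets did not overlap, and it rose by 1.03 ± 0.15 (SE; adjusted p = 0.00164). Polrmt, the RNA polymerase of mitochondria, fell by 0.28 (adjusted p = 0.00654). Of 8 genes of ATP export, uncoupling and ATP synthase inhibition, Slc25a4, the ADP/ATP carrier of heart and muscle, was 0.44 higher and Atpif1, the inhibitor of the ATP synthase, 0.30 higher. None of these lists held a gene past the threshold for penicillin averaged over diets.

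**Figure D5:**
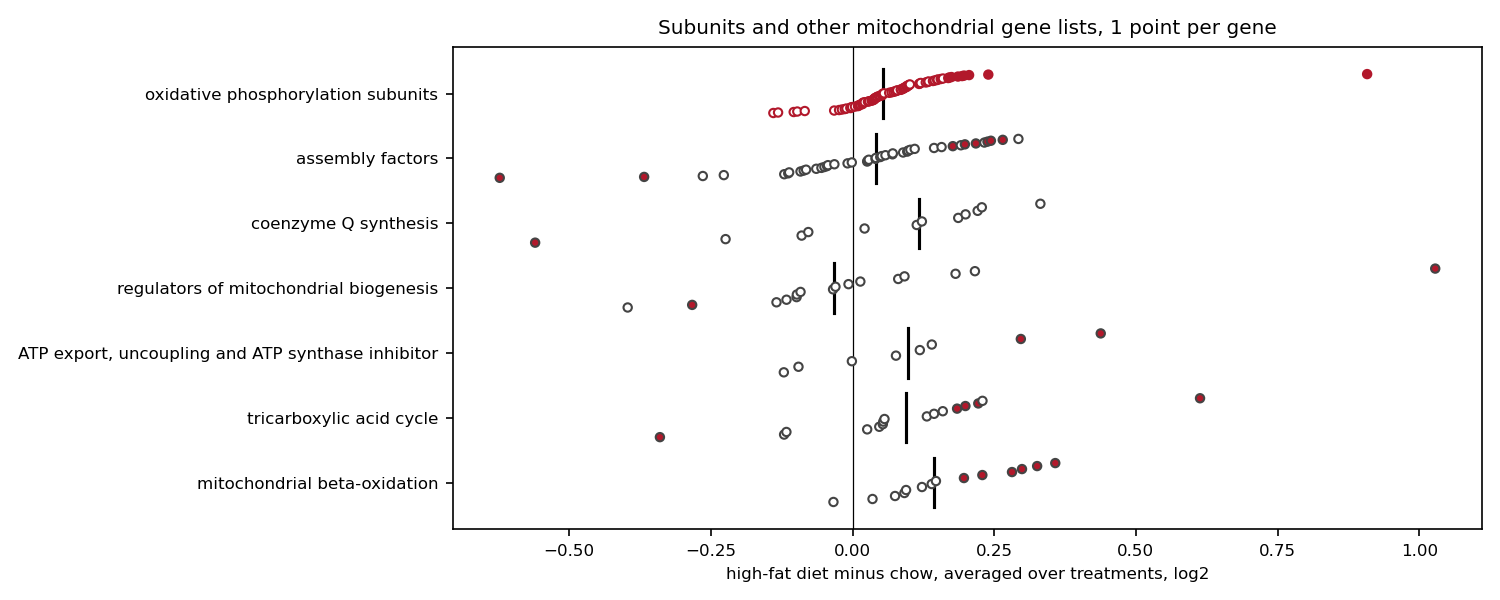
Difference on the log2 scale between high-fat diet and chow, averaged over treatments, for the 80 subunits and 6 lists of genes that work beside them, 1 point per gene, with the list median as a black line. Filled points pass an adjusted p of 0.05. The subunits crowd between -0.14 and 0.24 around a median of 0.05 with Cox7a1 apart at 0.91, and Ppargc1a lies at 1.03.

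Cell type markers moved with diet as well. Of 15 macrophage and Kupffer cell markers tested 11 rose with the diet (median 0.68), of 14 endothelial markers 9 (median 0.35), and of 12 stellate cell and fibroblast markers 6 (median 0.33), where 9.63% of all genes rose. Of 9 lymphocyte markers 1 rose (median -0.05), and of 4 cholangiocyte, 3 erythroid, 4 pancreatic and 7 muscle markers 0 passed (medians -0.13, -0.04, -0.00283 and 0.04). Of 12 hepatocyte markers 0 were higher and 1, Cps1, lower, with a median of 0.01. The Gapdh signal at the 3′ end minus that at the 5′ end, a measure of RNA integrity, averaged -0.066 in penicillin high-fat mice and -0.075 in control high-fat mice, against 0.015 in penicillin chow mice and -0.029 in control chow mice. With this measure as a covariate 1 subunit was higher on high-fat diet, Cox7a1, at 1.07 (adjusted p = 0.0287). The part of cell composition in the subunit shift was not tested.

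Several probe sets measured 49 of the 82 genes, and the brightest was used. Of the 87 other sets 74 were above the minimum, and 57 of these had the same sign of the averaged diet difference as the set used. The set used has the suffix s for 11 genes, which marks probes shared by several genes, and x for 8, which marks probes open to cross-hybridisation, so their values may include copies such as pseudogenes.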

How the data were processed

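Liver RNA of 12 mice was measured on Affymetrix whole-genome mouse arrays. The values deposited by the authors are RMA estimates on the log2 scale, computed with affy according to the submitters' processing notes (versions: not given in the sources used here), for 45101 probe sets. RMA forces 1 distribution of probe intensities on all arrays, so a change shared by most genes is removed. Array medians over all probe sets were 5.52 to 5.59, and median centring used the median of the tested genes instead. The platform annotation gave 34945 sets 1 gene symbol, 932 several and 9160 none. The set of highest mean stood for each gene. Genes passing log2 4.999 (percentile 40) on 3 arrays or more entered limma 3.58.1 (R 4.3.3), with a mean per group, no covariate, and Benjamini-Hochberg adjustment over 13788 genes at 0.05. The fit was tested on simulated data. The contrasts covered each factor within the levels of the other, averaged, and the interaction. P-values measure the spread between mice, and 3 per group limits precision. Named genes were, per contrast, up to 12 subunits past the threshold, the 2 of smallest p per complex, and the tissue-restricted isoforms with their partners; of other lists, members past the threshold. The members, lists and tests were chosen with earlier results of these data known. Alternatives were other filters, probe sets, scalings, covariates, a replicate block and dropped arrays. The fits without 3 arrays of low 18S or 2 of high Acta1 signal were chosen after seeing the data.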

Additional observations from a re-analysis of the deposited data

Results flagged for a closer look

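Among the subunits and the genes of the lists read beside them, Cidea was the 1 gene whose diet effect differed between penicillin and control mice by the interaction test. Its diet effect was 3.80 larger on the log2 scale in penicillin mice (adjusted p = 0.0389 in limma over all genes). It stood at 9.73, 8.14 and 9.79 in penicillin high-fat mice and 5.57, 5.59 and 5.41 in control high-fat mice, against 4.42, 5.13 and 5.03 in penicillin chow mice and 4.48, 5.22 and 5.18 in control chow mice. In each chow group 1 of these values lies below the minimum of log2 4.999.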

How the results depend on the processing

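Alternatives were run for 86 comparisons, those of subunits past the threshold or of smallest p in their complex and, for the averaged diet comparison only, the paired isoforms. Of 1134 alternative values 1017 kept their direction and their side of the threshold, 86 lost the call, 12 gained a call and 19 changed sign, and with 1 array left out the numbers were 929, 90, 1 and 12 of 1032. The count of 0 subunits for penicillin was the same in all settings, on either diet and averaged.

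The count of subunits higher on high-fat diet, averaged over treatments, was 11 and became 19 at an adjusted p of 0.1, 1 at 0.01, 7 with cyclic loess, 2 with median centring, 18 with trend and robust variance, 4 with a replicate block, 1 with the Gapdh measure as covariate, 4 without the 3 arrays of low 18S signal, 2 without the 2 arrays of high Acta1 signal, and 3 to 10 with 1 array left out. In penicillin mice it was 4 and became 10, 0, 2, 1, 10, 2, 0, 1, 1 and 0 to 3 under the same settings in that order, 2 without a filter, 7 with a filter at the 80th percentile, 2 with the most variable probe set and 0 with only the arrays compared. In control mice it was 0 and became 1 at an adjusted p of 0.1, with array weights, with only the arrays compared, and 0 to 1 with 1 array left out. The median in penicillin mice, 0.08, was 0.0484 with cyclic loess, 0.0271 with median centring and 0.0548 with array weights. The averaged median, 0.05, was 0.0224 with median centring, and the interaction median, 0.03, was then -0.00885. The share of all genes passing under each of these settings is not given. Changes in these counts therefore cannot be read as particular to the subunits. The causes were not tested.

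Signs that changed belonged to uncalled differences. Sdhc in penicillin on chow was -0.0314 with the most variable probe set. In high-fat diet on penicillin mice, Sdhc was 0.0372 with the Gapdh covariate, 0.0585 without the low 18S arrays and -0.0549 to 0.00900 with 1 array left out. Sdha was -0.11 in control mice and -0.16 averaged with the most variable probe set, and -0.00449 with the mean of all sets. Ndufab1 in the interaction was -0.0212 with the mean of all sets and -0.37 with the most variable set. For the averaged diet difference, Cox4i2 was 0.0150 with cyclic loess, 0.0217 without the high Acta1 arrays and -0.0367 to 0.00982 with 1 array left out. Cox8b was -0.0201 with median centring, -0.0321 with array weights, -0.0482 without the high Acta1 arrays and -0.0267 to 0.0703 with 1 array left out, and Cox8a -0.0322 with the mean of all sets. Cox7a2l was -0.0289 with the most variable set, -0.0180 with cyclic loess, -0.0216 with median centring, -0.0187 with array weights, -0.0110 without the high Acta1 arrays and -0.0230 to 0.0539 with 1 array left out.

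The replicate numbers did not pair the mice: of 18 pairs of same-numbered arrays, 3 had deviations that correlated over 0.1, within a range of -0.23 to 0.17, so the counts of 4 and 2 with a replicate block are given here only.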
